A study of Mus musculus with 4 samples.

Results

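Collagens, laminins and integrins build and read the basement membrane, and their genes were followed in single epithelial cells of the adult mouse small intestine. The Hippo pathway kinases Lats1 and Lats2 had been deleted or not. The members described are 83 of the 84 gene columns, among 25289, whose symbol reads Col, a number, a and a number, or Lama, Lamb or Lamc and a digit, or starts with Itga or Itgb. They are 42 collagen genes, 10 laminin genes, 27 integrin genes and 4 genes that the prefix also caught (Itgb1bp1, Itgb1bp2, Itgb3bp and Itgbl1), which encode no integrin subunit. The Lats-deleted group was 2 libraries from adult C57BL/6J mice of the genotype Lrig1-CreERT2 Lats1fl/fl Lats2fl/fl, and the control group was 2 libraries from adult C57BL/6J Lats1fl/fl Lats2fl/fl mice without Cre. All mice had 2 mg of tamoxifen by the intraperitoneal route and were taken at day 7. Lrig1-CreERT2 is active in cells that express Lrig1, many of them crypt stem and progenitor cells, so a library can mix deleted with undeleted cells. Cells sorted as EpCAM+CD45-TER119-DAPI- (5000 per condition) were barcoded in droplets (inDrop). The labels do not say whether libraries came from separate mice, so p-values measure the spread between libraries, which may be technical.

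An epithelial cell sits on a basement membrane whose sheet is made of laminin trimers (1 α, 1 β and 1 γ chain each) and a network of type IV collagen. Laminin with the chains encoded by Lama3 and Lamb3 anchors epithelia through integrin α6β4 in hemidesmosomes and through integrin α3β1. Laminin-511 (Lama5, Lamb1, Lamc1) and laminin-521 (Lama5, Lamb2, Lamc1) are the broad laminins of adult epithelia. Integrins are αβ pairs: those with α3 or α6 bind laminin, the pair of α2 and β1 binds collagen, and those with αv bind RGD sequences, as αvβ6 does in the latent form of TGF-β. In the intestine the fibrillar collagens I and III are made by fibroblasts of the lamina propria. LATS1 and LATS2 hold back YAP and TAZ, coactivators that act through TEAD transcription factors.

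The libraries differed in more than the genotype, and these values stand beside every comparison. Files held 4731529 and 9191916 counts (Lats-deleted) and 2872497 and 2247269 counts (control). Barcodes were kept if they had 1000 counts and 300 genes or more and no more than 30% of counts from mitochondrially encoded genes. This left 726 and 1289 Lats-deleted cells and 774 and 515 control cells. Median counts per cell were 3715.5 and 3848 in the Lats-deleted libraries and 1708 and 1995 in the control libraries, and any pair of libraries shared 4 to 12 cell barcodes. Xist, a transcript of female cells, had 640 and 505 CPM (counts scaled to the library size) in the Lats-deleted libraries and 9.35 and 6.51 CPM across the control libraries, so sex and genotype cannot be told apart. Lats1 was at 6.90 and 9.34 CPM across the Lats-deleted libraries and at 23.2 and 34.9 CPM across the control libraries (log2 fold change -1.80, adjusted p = 0.00843). Lats2 was at 26.8 and 19.5 CPM in the Lats-deleted group, against 9.12 and 10.5 CPM in control libraries (1.23, adjusted p = 0.0316). The labels do not say which exons are deleted. Epithelial types differed too. A list of 10 enterocyte genes summed to 2291 and 1052 CPM across the Lats-deleted libraries, against 25280.0 and 25021 CPM across the control libraries. A list of fetal-like or regenerative genes (Clu, Ly6a and others) summed to 17802 and 13078 CPM across Lats-deleted libraries, against 76.1 and 83.0 CPM in control libraries. Stomach genes (such as Gkn1 and Tff2) marked 5 (0.689%) and 913 (70.8%) Lats-deleted cells and 19 (2.45%) and 6 (1.17%) control cells, which sets Lats-deleted library 2 apart. The part of these differences in the results was not tested, except where a value within a cell set or without those cells is given.

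Because fibroblasts make collagens, kept cells with at least 4 counts summed over Dcn, Col1a1, Col1a2 and Col3a1 were taken out and are called the fibroblast-gene set. The set held 74 of 726 cells (10.2%, exact 95% interval 8.09 to 12.6%) of Lats-deleted library 1 and 8 of 1289 (0.621%, 0.268 to 1.22%) of Lats-deleted library 2. It held 0 of 774 and 0 of 515 control cells, which allow shares of up to 0.388% and 0.583% by 3 counts over the number of cells. Their exact 95% intervals reach 0.475% and 0.714%. An exact two-sided permutation test gave p = 0.333, the smallest that 2 libraries against 2 can give. Cells mostly lay far from the threshold: 70 and 7 Lats-deleted cells held 12 counts or more, 2 and 0 held 4 or 5, and 5 and 7 held 2 or 3. Counts were then summed per library over the cells outside the set, scaled with TMM and tested over all genes with edgeR's quasi-likelihood test. A Benjamini-Hochberg adjusted p under 0.05 was the threshold. Each pair of CPM values gives library 1 and then library 2 of a group (n = 2 each). Adjusted p-values come from edgeR, and a log2 fold change is Lats-deleted over control.

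Outside the set, 38 of the 83 members passed the filter on low counts; 12 were higher in the Lats-deleted libraries, 1 was lower and 25 did not pass the test. Of all 12314 genes tested 32.3% were called, 16.1% higher and 16.1% lower, against 31.6% of the tested members higher and 2.63% lower, or 14.5% of all 83 members higher. A member can enter the test through the group where it is high, so these shares describe the members and support nothing. The calls were uneven over the families: 5 of 10 laminin genes were higher and 1 was lower, 6 of 27 integrin genes were higher, and 1 of 42 collagen genes was higher. Of the 3 families 8, 13 and 15 genes had been tested. The median log2 fold change of the tested members was 0.53, against 0.05 over all genes tested. The 45 untested members had 1 to 48 counts in all 4 libraries together and at most 7.84 CPM in any of them. The count of higher members fell to 7 without control library 1 and to 6 without control library 2, and the call of the lower member ended in both cases. The groups did not overlap in any of the 13 called members, as in 69.5% of all genes tested.

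**Figure D1:**
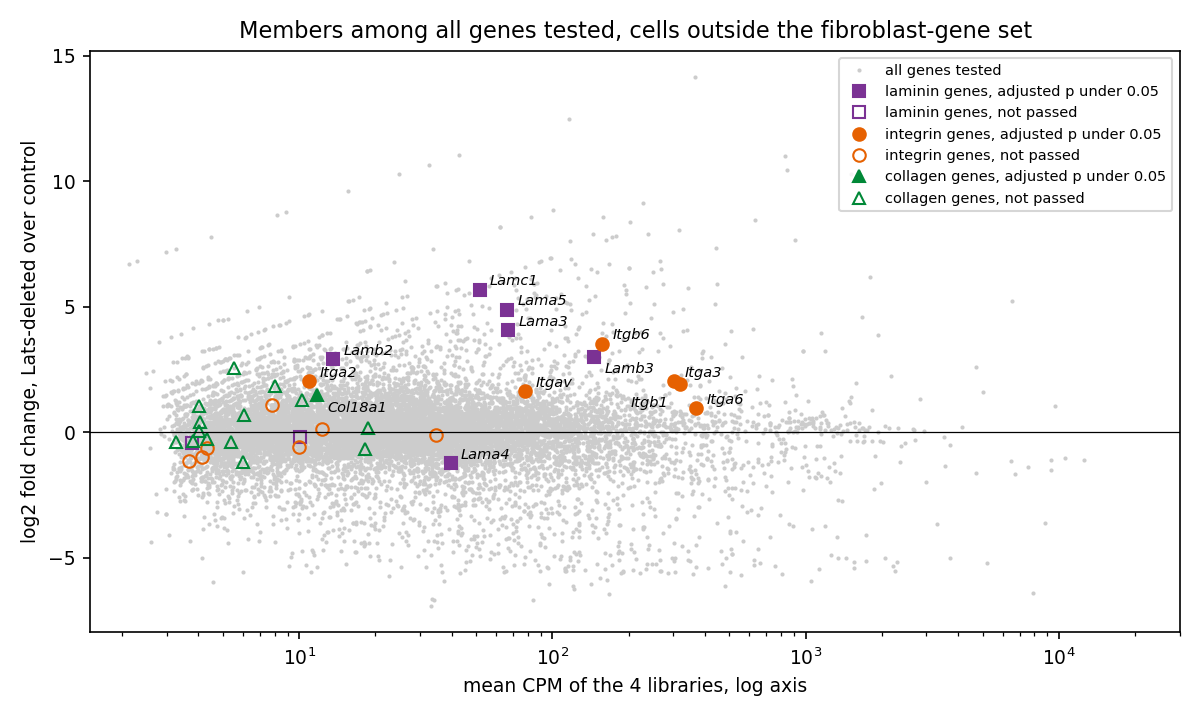
Each tested gene by its mean CPM over the 4 libraries (x, log axis) and its log2 fold change, Lats-deleted over control (y), in cells outside the fibroblast-gene set; grey dots are all 12314 genes tested, filled symbols are members with an adjusted p under 0.05. The called laminins reach a log2 fold change of 5.68 (Lamc1), Lama4 lies at -1.23, and 14 of the 15 tested collagens are open symbols.

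Lama3 and Lamb3, whose products join in an anchoring laminin of epithelia, were both higher in the Lats-deleted libraries. Lama3 (ENSMUSG00000024421.16, chromosome 18, 12333819 to 12583013), the α chain, was at 146 and 108 CPM across the Lats-deleted libraries and at 12.6 and 1.74 CPM across the control libraries (log2 fold change 4.05, SE 0.550, adjusted p = 0.00221). Lamb3 (ENSMUSG00000026639.18, chromosome 1, 193207699 to 193343878), the β chain, was at 257 and 265 CPM across Lats-deleted libraries, against 39.3 and 25.3 CPM in control libraries (log2 fold change 3.00, SE 0.271, adjusted p = 0.000457). Each Lats-deleted value stood far above both control values. The control libraries differed between themselves most for Lama3, which had 18 counts in library 1 and 2 in library 2. Lama3 shares exon sequence with Gm29200 on the other strand, and the sources used here do not say whether counting used strand. Both calls held under each of 17 alternatives of filter, scaling, cell choice, tool and left-out library.

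The laminin-511 and laminin-521 genes differed by chain. Lama5 (ENSMUSG00000015647.9, chromosome 2, 180176373 to 180225859) was at 128 and 127 CPM across the Lats-deleted libraries, against 3.51 and 5.23 CPM across the control libraries (log2 fold change 4.88, SE 0.293, adjusted p = 0.000171). Lamc1 (ENSMUSG00000026478.14, chromosome 1, 153218922 to 153332786), the γ1 chain of most laminins, was at 97.1 and 106 CPM across Lats-deleted libraries, against 2.11 and 1.74 CPM in control libraries, where it had 3 and 2 counts (log2 fold change 5.68, SE 0.325, adjusted p = 0.000171). Lamb2 (ENSMUSG00000052911.9, chromosome 9, 108479736 to 108490530), the β2 chain, was at 27.9 and 19.8 CPM across Lats-deleted libraries, against 1.40 and 5.23 CPM in control libraries (log2 fold change 2.90, SE 0.539, adjusted p = 0.00754). Lamb1, the β1 chain, overlapped between the groups, at 10.2 and 8.52 CPM across the Lats-deleted libraries and 8.42 and 13.1 CPM across the control libraries (log2 fold change -0.19, SE 0.381, adjusted p = 0.743). The α and γ chains of these trimers were thus called higher with the β2 chain, while the β1 chain did not pass the test. The Lamb2 call ended without control library 1 (adjusted p = 0.0689).

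Lama4 (ENSMUSG00000019846.11, chromosome 10, 38965515 to 39110188), an α chain best known from the basement membranes of vessels and muscle, was the 1 member called lower. It was at 27 and 20.3 CPM across the Lats-deleted libraries, against 41.4 and 69.7 CPM across the control libraries (log2 fold change -1.23, SE 0.321, adjusted p = 0.027). A list of 7 endothelial genes summed to 18.1 and 13.8 CPM outside the set in the Lats-deleted libraries and to 24.3 and 26.9 CPM across the control libraries. Pecam1, a defining gene of the list, was at 6.54 and 5.52 CPM across Lats-deleted libraries, against 14.3 and 12.2 CPM in control libraries, and so lay lower in the same direction as Lama4. The other 6 genes were at 4.88 CPM or less in each library, with Cdh5 at 2.08 and 2.42 CPM across Lats-deleted libraries, against 3.12 and 1.63 CPM in control libraries. Cdh5, Eng, Esam, Cldn5 and Plvap overlapped between the groups. Kdr lay slightly lower, at 1.49 and 1.55 CPM across Lats-deleted libraries, against 1.87 and 1.63 CPM in control libraries. The part of endothelial RNA in the Lama4 result was not tested. The Lama4 call ended without control library 1 (adjusted p = 0.0609), without control library 2 (0.230) and with at least 2000 counts per cell (0.0578). It was also not called in all kept cells, and the fibroblast-gene set held 26.3% and 6.77% of its counts in the Lats-deleted libraries 1 and 2. Lama2, an α chain of muscle and nerve, was at 3.86 and 2.62 CPM across the Lats-deleted libraries and 4.21 and 4.36 CPM across the control libraries (adjusted p = 0.541), and Lama1 and Lamc3 had too few counts to be tested.

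**Figure D2:**
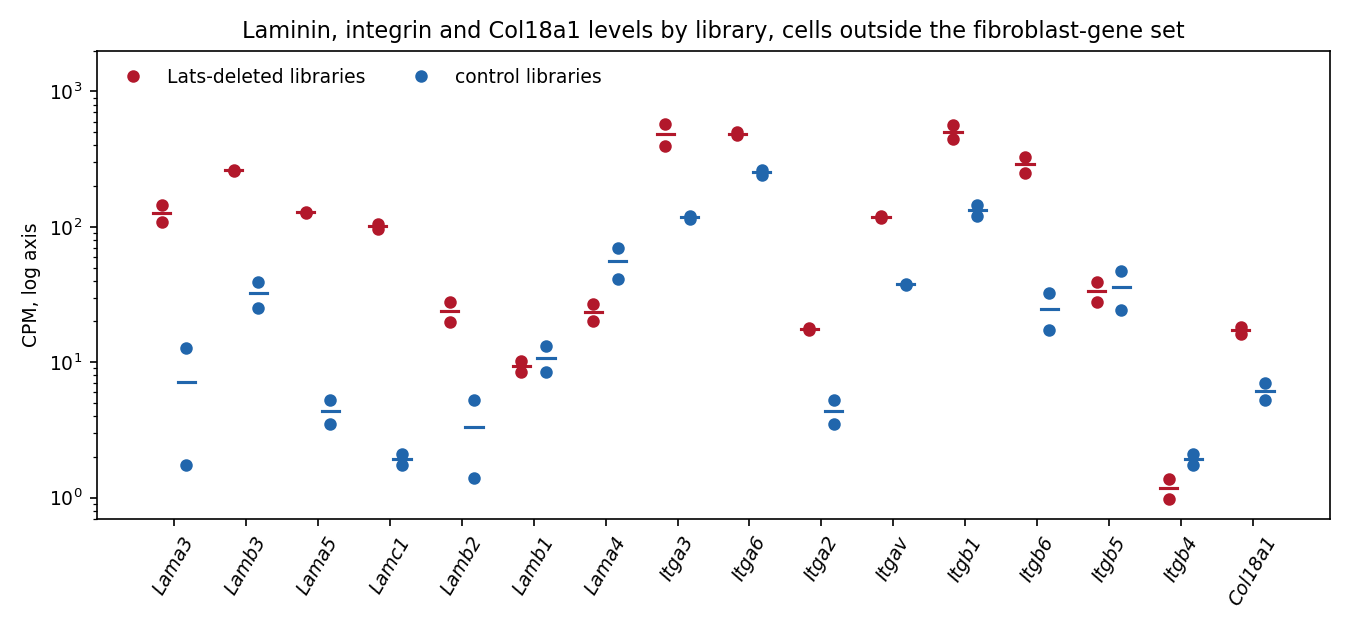
CPM on a log axis of laminin genes, integrin genes and Col18a1 outside the fibroblast-gene set; each point is a library, Lats-deleted libraries left in red and control libraries right in blue, and short lines are means of 2. Lama3, Lamb3, Lama5, Lamc1 and Itgb6 show the widest gaps, Lama4 is the called gene with the red points below the blue ones, and Lamb1 and Itgb5 overlap.

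Among integrins that bind laminin, the α3, α6 and β1 subunits were all called higher. Itga3 (ENSMUSG00000001507.16, chromosome 11, 95044474 to 95076801), the α3 subunit, was at 579 and 394 CPM across the Lats-deleted libraries, against 115 and 121 CPM across the control libraries (log2 fold change 2.04, SE 0.266, adjusted p = 0.00185). Itgb1 (ENSMUSG00000025809.15, chromosome 8, 128685654 to 128733200), the β1 subunit that pairs with most of the α subunits here, was at 569 and 444 CPM across Lats-deleted libraries, against 145 and 121 CPM in control libraries (log2 fold change 1.92, SE 0.245, adjusted p = 0.00171). Itga6 (ENSMUSG00000027111.15, chromosome 2, 71745616 to 71858416) was at 503 and 473 CPM across Lats-deleted libraries, against 264 and 241 CPM in control libraries (log2 fold change 0.95, SE 0.211, adjusted p = 0.0147). Itgb4, the partner of α6 in hemidesmosomes, had only 5 and 6 counts in the Lats-deleted libraries and 3 and 2 in the control libraries. That is 1.38 and 0.983 CPM across Lats-deleted libraries, against 2.11 and 1.74 CPM in control libraries, and the gene was not tested. Itgb4 shares exon sequence with a gene on the other strand, and its counts were too few to compare. Itga6, at 264 and 241 CPM in the control libraries, was well counted in the same cells. Whether counting or annotation lowered the Itgb4 counts was not tested, so they are not read as a low level of the gene. With 1 control library left out, the adjusted p became 0.0599 and 0.0647 for Itga3, 0.147 and 0.190 for Itga6 (without control library 1 and 2) and 0.0678 for Itgb1 (without library 2).

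Of the integrins with αv, the αv and β6 subunits were higher and β5 was not. Itgb6 (ENSMUSG00000026971.15, chromosome 2, 60598292 to 60722643), which pairs only with αv and is an epithelial gene, was at 331 and 250.4 CPM across the Lats-deleted libraries, against 32.3 and 17.4 CPM across the control libraries (log2 fold change 3.53, SE 0.340, adjusted p = 0.000566). Itgav (ENSMUSG00000027087.11, chromosome 2, 83724397 to 83806916) was at 120.0 and 117 CPM across Lats-deleted libraries, against 37.9 and 37.5 CPM in control libraries (log2 fold change 1.65, SE 0.204, adjusted p = 0.00148), and shares exon sequence with Gm13684 on the other strand. The Itgb6 call held under each of 17 alternatives, while that of Itgav ended without control library 2 (adjusted p = 0.0548). Itgb5 was at 27.9 and 39.3 CPM across the Lats-deleted libraries and 47.0 and 24.4 CPM across the control libraries, so the groups overlapped. Its log2 fold change of -0.10 (SE 0.357, adjusted p = 0.864) turned positive in 3 alternatives. Itgb8, another partner of αv, had 9 and 13 counts in the Lats-deleted libraries and 5 and 4 in the control libraries, and Itgb3 had 11 and 14 counts in Lats-deleted libraries and 4 and 2 in control libraries.

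Itga2 (ENSMUSG00000015533.9, chromosome 13, 114833081 to 114932100), the α2 subunit of a collagen receptor, was at 17.9 and 17.2 CPM across the Lats-deleted libraries, against 3.51 and 5.23 CPM across the control libraries (log2 fold change 2.02, SE 0.389, adjusted p = 0.0086). The call ended without control library 1 (adjusted p = 0.0857) and without control library 2 (0.0581). Itga1, the other widely expressed collagen-binding α subunit, was at 14.1 and 7.37 CPM across the Lats-deleted libraries and 6.32 and 3.49 CPM across the control libraries and did not pass the test (adjusted p = 0.174). Itga5, the fibronectin receptor subunit, had 10 and 34 counts in the Lats-deleted libraries and 1 and 3 in the control libraries and was not tested outside the set. The leukocyte integrins were at low levels. Itgae was at 2.21 and 2.29 CPM across the Lats-deleted libraries and 4.91 and 5.23 CPM across the control libraries. Itgal was at 4.41 and 1.47 CPM across Lats-deleted libraries, against 6.32 and 4.36 CPM in control libraries, and neither passed the test. Itgb2, Itgb7 and Itgax had too few counts. Beside them the 15 listed leukocyte genes summed to 100.5 and 75.6 CPM across the Lats-deleted libraries and to 359.8 and 188.0 CPM across the control libraries. Most of the control sum was Cd74, at 10.1 and 1.21 CPM across the Lats-deleted libraries and 272 and 126 CPM across the control libraries. Most of the Lats-deleted sum was Laptm5, which went the other way, at 51.4 and 47.1 CPM across the Lats-deleted libraries and 2.49 and 3.26 CPM across the control libraries. Ptprc, another gene of the list, was close between the groups, at 17.5 and 15.02 CPM across the Lats-deleted libraries and 19.3 and 18.7 CPM across the control libraries. Kept cells marked by leukocyte genes were 8.40% and 7.45% in the Lats-deleted libraries, against 1.55% and 1.75% in the control libraries. The mark was at least 2 counts over the list without Cd74, with no thinning, and Lats-deleted cells had more counts per cell. Shares and sums thus rest on unlike genes and depths, and neither shows which group held more leukocyte RNA. The part of leukocyte RNA in the integrin levels was not tested. The defining T cell gene Cd3e was at 1.87 CPM or less.

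Collagens outside the fibroblast-gene set were mostly low and mostly not called. Col18a1 (ENSMUSG00000001435.15, chromosome 10, 77052178 to 77166548), the basement membrane collagen that carries endostatin, was the 1 collagen called. It lies outside the rule for genes named here, because its level was under 20 CPM, and was chosen after its values were seen. It was at 16.3 and 18.4 CPM across the Lats-deleted libraries, against 7.02 and 5.23 CPM across the control libraries (log2 fold change 1.48, SE 0.361, adjusted p = 0.0209). The call ended with DESeq2 (adjusted p = 0.0840), with at least 2000 counts per cell (0.0654), and without control library 1 (0.0916) or 2 (0.135). Col4a1 (ENSMUSG00000031502.11, chromosome 8, 11198423 to 11312826) and Col4a2 (ENSMUSG00000031503.13, chromosome 8, 11312805 to 11449287), which encode the chains of the common type IV collagen, did not pass the test. They start head to head on opposite strands with overlapping first exons. Col4a1 was at 14.9 and 4.42 CPM across the Lats-deleted libraries, against 2.81 and 0 CPM across the control libraries, and Col4a2 at 19.6 and 5.90 CPM across Lats-deleted libraries, against 4.91 and 1.74 CPM in control libraries. Lats-deleted library 1 was high for both genes and library 2 lay just above the higher control value. Their log2 fold changes were 2.57 (SE 1.07, adjusted p = 0.112) and 1.83 (SE 0.806, adjusted p = 0.129). Both passed the threshold without Lats-deleted library 2 (adjusted p = 2.55e-05 and 1.77e-05) and without stomach-gene cells (0.00352 and 0.0202). Col4a4, a chain of the type IV collagen of specialised membranes, was at 21.5 and 7.54 CPM across the Lats-deleted libraries and 4.91 and 6.97 CPM across the control libraries (adjusted p = 0.175). Col17a1, the transmembrane collagen of hemidesmosomes, had 11 and 9 counts in the Lats-deleted libraries and 2 and 3 in the control libraries and was not tested. Col7a1, the collagen of anchoring fibrils, had 11 and 23 counts in Lats-deleted libraries and 7 and 2 in control libraries.

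The fibrillar collagens lay elsewhere. Of the counts of Col3a1 (ENSMUSG00000026043.18, chromosome 1, 45311538 to 45349706) in kept cells, 98.4% and 74.4% were in the fibroblast-gene set in Lats-deleted libraries 1 and 2. For Col1a2 (ENSMUSG00000029661.16, chromosome 6, 4504814 to 4541544) and Col1a1 (ENSMUSG00000001506.10, chromosome 11, 94936224 to 94953042) the shares were 96.0% and 76.6%, and 89.0% and 67.2%. These 3 genes chose the cells, so the shares are a description of the rule. Outside the set Col1a1 was at 4.41 and 3.11 CPM across the Lats-deleted libraries and 11.2 and 5.23 CPM across the control libraries, Col1a2 at 4.41 and 4.92 CPM across Lats-deleted libraries, against 7.02 and 5.23 CPM in control libraries, and Col3a1 at 3.04 and 3.28 CPM across Lats-deleted libraries, against 2.81 and 1.74 CPM in control libraries. Cells were removed by these genes in the Lats-deleted libraries only, so the levels are a description with no test, although Col1a1 and Col1a2 are among the 25 members counted as not passing.

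Collagens that did not choose the cells gathered there too. Most shares were larger in Lats-deleted library 1, but the set held 74 cells there and 8 in library 2, so the shares do not compare the libraries. Col6a1 and Col6a2, chains of the beaded filament collagen of connective tissue, had 92.1% and 50% and 86.7% and 39.5% of their counts in the set in Lats-deleted libraries 1 and 2. Col5a2, which shapes collagen I fibrils, had 84.1% and 31.0%. For Col14a1, a collagen found on the surface of fibrils, the shares were 74.5% and 0%. Of the type IV chains, Col4a5, on the X chromosome, had 88.4% and 11.1% of its counts there, Col4a1 43.2% and 15.6% and Col4a2 21.1% and 21.7%, although the set was 10.2% and 0.621% of the cells. Laminin chains were split. Lamb1, Lama4 and Lamb2 had 37.3%, 26.3% and 25.7% of their library 1 counts in the set, while Lama3 and Lamb3 had 0.752% and 0.639%. Of the integrins, Itgb1 had 4.36%, Itga3 2.24% and Itgb6 0.333% of its library 1 counts there.

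**Figure D3:**
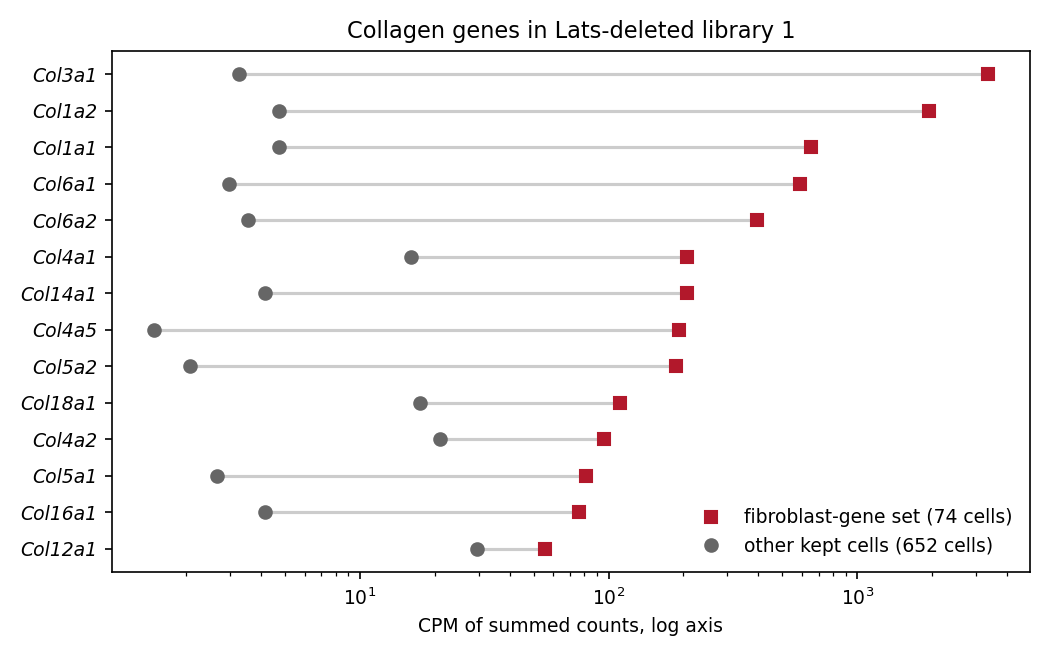
Level in CPM (log axis) of the 14 collagen genes with at least 10 counts in the fibroblast-gene set of Lats-deleted library 1, as plain CPM of summed counts; red squares are the 74 cells of the set, grey circles the 652 other kept cells, 1 library with no replicate. Col3a1, Col1a2 and Col1a1, which chose the cells, are at 3351, 1936 and 652 CPM in the set, and Col6a1 is at 586 CPM there.

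The set carried many but not all of the listed fibroblast markers. In Lats-deleted library 1 Dcn, which chose the cells, was at 12427 CPM, Mgp at 2239, Serping1 at 1966 and Vim at 1865 CPM, while Lum was at 5.05 CPM and Dpt at 0. The 10 listed fibroblast genes summed to 18769 and 7901 CPM in the set in the Lats-deleted libraries, to 35.1 and 33.8 CPM outside it, and to 104.8 and 112 CPM across the control libraries. Most of the control sum was Fbln1. The 8 set cells of library 2 had no count of Lum or Dpt and 28.8 CPM of Mgp. Fetal-like or regenerative genes summed to 5332 and 5565 CPM in the set, and no caller was used to remove doublets. The set is therefore called by its genes and given no cell type.

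With the set left in, the sums over all kept cells gave 15 members higher and 0 lower of 46 tested, where 30.8% of 12561 genes were called, 15.3% higher and 15.5% lower. The 3 added calls were collagens. Col1a2 was at 102 and 20.8 CPM across the Lats-deleted libraries and 7.08 and 5.27 CPM across the control libraries (log2 fold change 3.28, SE 0.865, adjusted p = 0.0294). Col3a1 was at 173 and 12.7 CPM across Lats-deleted libraries, against 2.83 and 1.76 CPM in control libraries (log2 fold change 5.27, SE 1.52, adjusted p = 0.0398). Col4a5 was at 11 and 4.39 CPM across Lats-deleted libraries, against 0.708 and 0.879 CPM in control libraries, where both control libraries had 1 count, a ratio of 8.88 with a 95% counting interval of 2.37 to 74.7 (adjusted p = 0.0366). Library 1 was the high one for all 3 genes. Col1a1 did not pass the test here (log2 fold change 1.43, SE 0.749, adjusted p = 0.195). Fewer cells of the set and less RNA per cell cannot be told apart in such sums. The count of higher members fell to 5 without control library 1 and 8 without control library 2, and was 24 without Lats-deleted library 2.

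Shares of cells with a count followed the levels. Each cell was thinned to 1000 counts to set depth aside, and the percentage of cells with at least 1 count was taken outside the set. Lamb3 was counted in 25.5% and 24.2% of Lats-deleted cells, against 2.97% and 2.52% of control cells. Without thinning, the shares were 58.3% and 56.4% of Lats-deleted cells, against 6.46% and 5.05% of control cells. Itgb6 was counted in 23.5% and 22.2% of Lats-deleted cells, against 1.68% and 1.94% of control cells. In the fibroblast-gene set of library 1, which had a median of 2467.5 counts per cell, against 4012 outside it, the thinned shares were 5.41% for Lamb3 and 1.35% for Itgb6. The share of the set is 4 of 74 cells for Lamb3 (exact 95% interval 1.49 to 13.3%), and the part of free RNA in any of these shares was not tested. For Itga6 the groups were closer, at 37.3% and 37.3% of Lats-deleted cells, against 18.5% and 18.3% of control cells. No single cell held more than 2.99% of the counts of Lama3, Lamb3, Lama5, Lamc1 or a called integrin gene other than Itga2 in a Lats-deleted library.

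Lama3 and Lamb3 were counted together in a part of the Lats-deleted cells. Without thinning, Lama3 had a count in 39.0% and 24.8% and Lamb3 in 58.3% and 56.4% of Lats-deleted cells outside the set. Whether the 2 genes met in a cell more often than these shares alone give was not tested. Both had a count in 187 of 652 (28.7%, exact 95% interval 25.2 to 32.3%) and 256 of 1281 (19.98%, 17.8 to 22.3%) Lats-deleted cells. In control cells it was 4 of 774 (0.517%, 0.141 to 1.32%) and 0 of 515, which allows a share of up to 0.583% (exact 95% interval up to 0.714%). In the fibroblast-gene set of Lats-deleted library 1 it was 1 of 74 cells. After thinning, which leaves few counts of both genes at once, it was 32 (4.91%) and 47 (3.67%) Lats-deleted cells and 1 and 0 control cells. Lama5, Lamc1 and at least 1 of Lamb1 and Lamb2 were counted together in 36 of 652 (5.52%) and 31 of 1281 (2.42%) Lats-deleted cells outside the set. In control cells it was 0 of 774 and 0 of 515, and after thinning it was 0 in each library. Intervals and limits cover counting error only.

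Promoter windows were read for the TEAD motif GGAATG on both strands (CATTCC on the other), since YAP and TAZ act through TEAD factors. The windows run from 250 bases before to 50 after the start of a gene, from RefSeq on GRCm38.p6, and 61 of the 83 members have one. Of the 9 higher members with a window, 3 hold the motif, as do 13.1% of the 61 members and 16.6% of 27025 genes with a window. The stretches of 30 bases around it are shown because these are the called members that carry it, 5′ to 3′ on the gene's strand with the motif in capitals. Lamb3 (chr1:193302064-193302093, plus strand), Itgb1 (chr8:128685624-128685653, plus strand) and Col18a1 (chr10:77113792-77113821 and chr10:77113742-77113771, minus strand) read:
Lamb3: gaggggaccccaCATTCCcagggagctctc
Itgb1: aggcgcggctgacgcggcgcggaGGAATGc
Col18a1, first site: tcaggctgggttCATTCCcttctgccagag
Col18a1, second site: gactgggaaccaGGAATGagggagggtggg
RefSeq lists more than 1 start for Lamb3 and Col18a1, and the windows shown belong to a start inside the gene span given above, not to its 5′ end. The first base of the motif lies 167 bases before that start in Lamb3, 7 in Itgb1, and 104 and 54 in Col18a1. The AP-1 motif TGANTCA is in 1 of these 9 windows (Itga3), in 6.56% of the members' windows and in 8.97% of genes. A match is a description of the letters and not a bound site.

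Because the groups differed in cell types, the comparison was repeated in cells chosen by one rule in every library. Dividing cells were those outside the set with at least 3 counts over a list of cell division genes after thinning, and they numbered 95 and 480 in the Lats-deleted libraries and 72 and 61 in the control libraries. Most dividing cells of Lats-deleted library 2 were stomach-gene cells: without these, 95 and 79 dividing Lats-deleted cells and 65 and 61 dividing control cells were left, and 8 members were again called higher. With all dividing cells 9 members were tested, 8 were higher and 0 lower. Of all members described, tested or not, 9.64% were thus higher. Among the 5652 genes tested 17.4% were called, 8.53% higher and 8.9% lower. Here too a member can enter the test through the group where it is high. The counts of higher members in dividing cells, also by family, therefore describe the members and support nothing. Lamb3 was at 260.2 and 199.6 CPM in dividing Lats-deleted cells, against 45.1 and 8.66 CPM in dividing control cells (log2 fold change 3.02, SE 0.530, adjusted p = 0.00245). Lama5 and Lamc1, each with 1 count in the dividing control cells, had ratios of 30.9 (95% counting interval 5.50 to 1222) and 32.4 (5.77 to 1283). Lama3, at 128 and 43.9 CPM across the Lats-deleted libraries and 0 in both control libraries, was at least 4.84-fold higher against a floor of 3 counts over the control group.

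Of 5 integrin genes tested in dividing cells 4 were higher. Itga3 was at 500.2 and 362 CPM in dividing Lats-deleted cells, against 45.1 and 43.3 CPM in dividing control cells (log2 fold change 3.27, SE 0.388, adjusted p = 0.00018). Itgb6 was at 289 and 187 CPM across Lats-deleted libraries, against 30.1 and 17.3 CPM in control libraries (log2 fold change 3.28, SE 0.502, adjusted p = 0.000983). Itgav was at 148 and 100.5 CPM across Lats-deleted libraries, against 15 and 17.3 CPM in control libraries (log2 fold change 2.90, SE 0.576, adjusted p = 0.00523), and Itgb1 at 532 and 428 CPM across Lats-deleted libraries, against 150.3 and 69.3 CPM in control libraries (log2 fold change 2.10, SE 0.372, adjusted p = 0.00256). Itga6 did not pass the test in dividing cells, at 657 and 532 CPM across the Lats-deleted libraries and 436 and 502 CPM across the control libraries (log2 fold change 0.34, SE 0.265, adjusted p = 0.438). Without control library 1 the calls of Itgav (adjusted p = 0.0737) and Lama3 (0.144) ended, and that of Lama3 also ended without control library 2 (0.0746) and with at least 2000 counts per cell (0.0954). No collagen had enough counts in dividing cells to be tested.

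Cells rich in enterocyte genes, with at least 20 counts over the enterocyte list after thinning, were a rule added after the data were seen. They numbered 32 and 23 in the Lats-deleted libraries and 496 and 319 in the control libraries, and the median Lats-deleted cell of this kind held 0 and 1 thinned counts of fetal-like or regenerative genes. Of 8 members tested, 1 was higher, where 2.05% of 5124 genes were called, 1.21% higher and 0.839% lower. That member was Lamb3, at 50.8 and 252 CPM in Lats-deleted cells, against 47.4 and 32.1 CPM in control cells (log2 fold change 1.83, SE 0.513, adjusted p = 0.0369), with library 1 near the control values. Itga3 was at 216 and 370.5 CPM in Lats-deleted cells and 144 and 142 CPM in control cells (log2 fold change 1.01, SE 0.323, adjusted p = 0.0989). Itgav was at 50.8 and 44.5 CPM across Lats-deleted libraries, against 49.6 and 48.9 CPM in control libraries (log2 fold change -0.04, SE 0.653, adjusted p = 0.995). The log2 fold change of Lats-deleted over control was compared between dividing and enterocyte-gene cells with the class by genotype term. For Itga3 the difference was 2.60 (SE 0.583, adjusted p = 0.0327), the 1 call among 11 members tested where 2.6% of 6605 genes were called. For Itgav it was 3.33 (adjusted p = 0.0557), for Lamb3 1.56 (0.467) and for Itga6 0.11 (0.938). In the control libraries the Itga3 values in dividing cells were below those in enterocyte-gene cells, in Lats-deleted library 1 they were above, and in Lats-deleted library 2 slightly below (362 CPM in dividing and 370.5 CPM in enterocyte-gene cells).

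**Figure D4:**
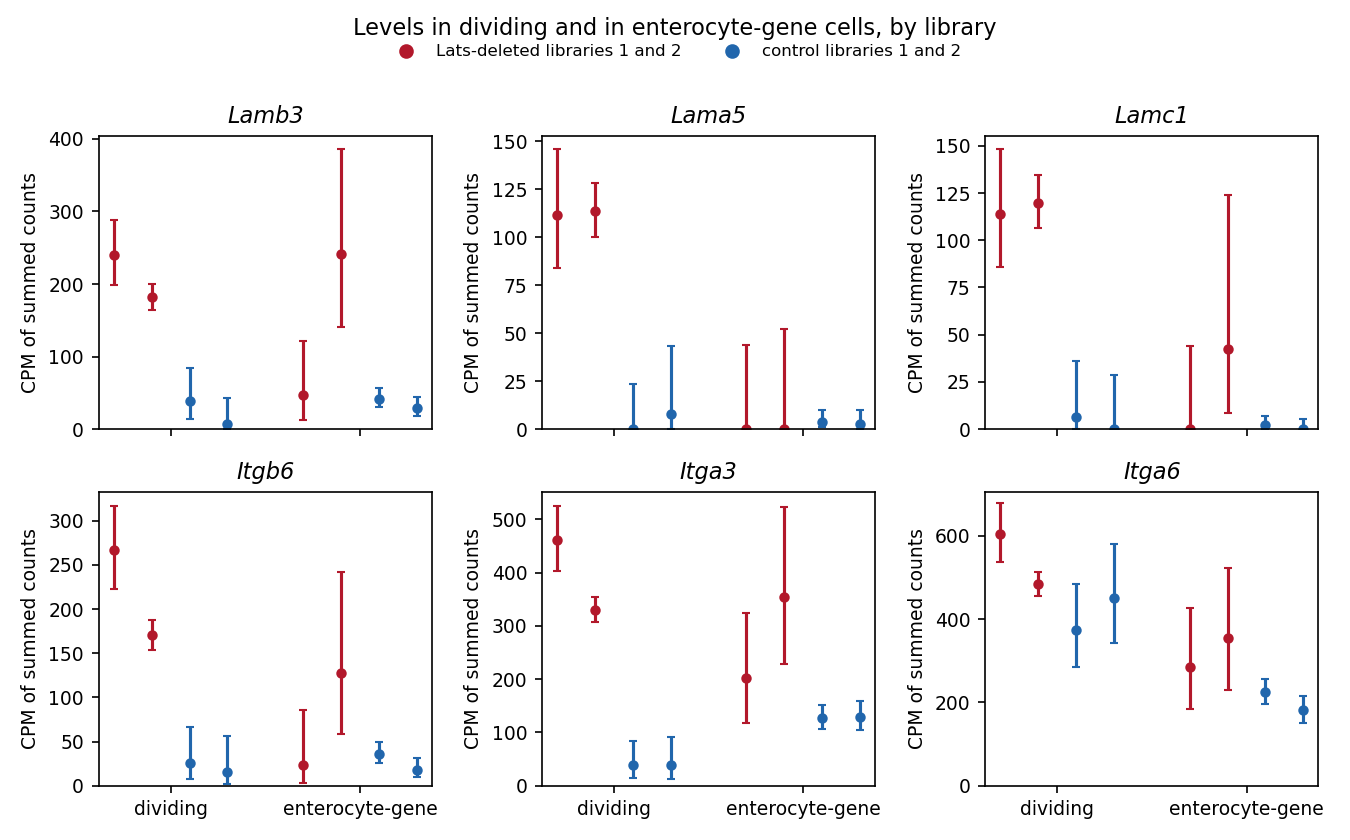
CPM of summed counts (linear axis from 0) of 6 members in dividing cells (left of each panel) and in enterocyte-gene cells (right), for Lats-deleted libraries 1 and 2 in red and then control libraries 1 and 2 in blue; bars are exact 95% Poisson intervals, which cover counting error only. Red points lie above blue ones in dividing cells for all 6 genes, by the least for Itga6, and in enterocyte-gene cells the 55 Lats-deleted cells give wide intervals.

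Within the Lats-deleted libraries the members varied with other gene programmes. Cells with at least 5 thinned counts of fetal-like or regenerative genes (591 and 1146 cells) had 290.1 and 291 CPM of Lamb3, against 63.0 and 161 CPM in the cells below that threshold (61 and 135 cells), as plain CPM of summed counts. In library 1, 32 of the 61 cells below it were enterocyte-gene cells, so cell type and regenerative genes are not separated here. Itgb6 was at 373 and 281 CPM in the cells above, against 78.8 and 101 CPM below, and Itga3 at 648 and 435 CPM in the cells above, against 221 and 224 CPM below. The 909 cells with stomach genes in Lats-deleted library 2 had 90.1 CPM of Lama3, 242 CPM of Lamb3 and 357 CPM of Itga3, against 181, 381 and 580 CPM in the 372 other cells of that library. Lamc1 went the other way, at 117 CPM in the stomach-gene cells and 95.4 CPM in the others. Below the stomach threshold, Itga3 had 623 and 580 CPM in libraries 1 and 2 of the Lats-deleted group, Lamb3 had 278 and 381 CPM and Itgb6 had 355 and 382 CPM. These are values of 1 or 2 libraries and were not tested. With the stomach-gene cells left out of all libraries, 16 members were called higher. The share of all genes called without those cells is not given here, so this count shows nothing particular to the members.

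Genes that work with the members moved with them in part. Of 80 partner genes in 5 lists with a column, 59 were tested, 30 were higher and 4 lower outside the set, with a median log2 fold change of 1.02, against the 16.1% higher, 16.1% lower and the median of 0.05 of all genes tested. A partner can also enter the test through the group where it is high, so these counts and those of each list describe the genes and support nothing. Of 24 integrin adaptors 19 were tested, 10 were higher and 0 lower. Flna, filamin A, which links β tails to actin, was at 389 and 377 CPM across the Lats-deleted libraries, against 6.32 and 8.72 CPM across the control libraries (log2 fold change 5.68, SE 0.285, adjusted p = 0.000167). Parva (log2 fold change 2.81, SE 0.281, adjusted p = 0.000631), Vcl (log2 fold change 2.25, SE 0.225, adjusted p = 0.000633) and Lims1 (log2 fold change 2.51, SE 0.277, adjusted p = 0.000956), which encode parvin α, vinculin and PINCH1, followed by smallest p. Of 9 other matrix receptors all were tested and 6 were higher. Bcam, a laminin α5 receptor, was at 339.9 and 161 CPM across the Lats-deleted libraries, against 5.61 and 0.872 CPM across the control libraries (log2 fold change 6.16, SE 0.647, adjusted p = 0.000784). The hyaluronan receptor Cd44 (log2 fold change 2.87, SE 0.244, adjusted p = 0.000386) and the syndecans Sdc1 (log2 fold change 1.56, SE 0.201, adjusted p = 0.0018) and Sdc4 (log2 fold change 1.05, SE 0.218, adjusted p = 0.0114) were also higher.

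Of 5 hemidesmosome and tetraspanin genes 4 were tested and 3 were higher. Krt14, a keratin of basal cells, was at 212 and 58.3 CPM across the Lats-deleted libraries, against 0.702 and 2.61 CPM across the control libraries (log2 fold change 6.39, SE 0.948, adjusted p = 0.00313). Plec was at 307 and 314 CPM across Lats-deleted libraries, against 175 and 141 CPM in control libraries (log2 fold change 0.97, SE 0.218, adjusted p = 0.0153). Cd151, whose product binds α3 and α6 integrins, was at 322 and 229 CPM across Lats-deleted libraries, against 145 and 159 CPM in control libraries (log2 fold change 0.86, SE 0.244, adjusted p = 0.0359). Dst, the other plakin of the list, was at 91.1 and 68.7 CPM across the Lats-deleted libraries and 95.4 and 91.5 CPM across the control libraries (adjusted p = 0.470). The 7 listed genes of basal or stratified epithelium summed to 276 and 84.6 CPM across the Lats-deleted libraries and to 15.6 and 19.5 CPM across the control libraries; Krt14 was most of the Lats-deleted sums and Trp63 the largest part of the control sums. Krt15 was at 19.02 and 7.94 CPM across Lats-deleted libraries, against 2.49 and 1.63 CPM in control libraries, and Krt13 at 18.1 and 8.11 CPM across Lats-deleted libraries, against 3.12 and 4.88 CPM in control libraries. Krt5 was at 1.78 and 0.691 CPM across Lats-deleted libraries, against 1.25 and 1.63 CPM in control libraries, and Trp63 at 7.13 and 5.18 CPM across Lats-deleted libraries, against 6.24 and 8.95 CPM in control libraries. Krt14, Krt15 and Krt13 were thus higher in both Lats-deleted libraries than in either control library, while Krt5 and Trp63 overlapped between the groups, and the part of such cells in the results was not tested.

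Of 14 basement membrane and matrix partners 10 were tested, 5 were higher and 1, Tnc, was lower. Agrn, agrin, which binds laminin, was at 299 and 231 CPM across the Lats-deleted libraries, against 47.0 and 47.1 CPM across the control libraries (log2 fold change 2.49, SE 0.238, adjusted p = 0.00055). Npnt, the ligand nephronectin, was at 69.3 and 102 CPM across Lats-deleted libraries, against 4.91 and 7.84 CPM in control libraries (log2 fold change 3.77, SE 0.366, adjusted p = 0.000574). Ecm1 (log2 fold change 3.49, SE 0.520, adjusted p = 0.00319) and Egfl6 (log2 fold change 2.82, SE 0.437, adjusted p = 0.0037) followed. Of 28 collagen modification and folding genes 17 were tested, 6 were higher and 3 lower. Colgalt1, which adds galactose to collagen, was at 199 and 239 CPM across the Lats-deleted libraries, against 33.7 and 19.2 CPM across the control libraries (log2 fold change 3.03, SE 0.307, adjusted p = 0.000677). Crtap, of the prolyl 3-hydroxylase complex, was at 29.0 and 37.5 CPM across Lats-deleted libraries, against 2.11 and 0.872 CPM in control libraries (log2 fold change 4.39, SE 0.470, adjusted p = 0.000853). P4hb, the β subunit of prolyl 4-hydroxylase and a general protein disulfide isomerase, was lower, at 486 and 519 CPM across Lats-deleted libraries, against 2079 and 1926 CPM in control libraries (log2 fold change -1.99, SE 0.225, adjusted p = 0.00104). Sec23a of the secretory coat was lower too, at 47.2 and 35.7 CPM across Lats-deleted libraries, against 177 and 119 CPM in control libraries (log2 fold change -1.85, SE 0.274, adjusted p = 0.00312). The count of higher partners fell to 12 without control library 1 and to 15 without control library 2.

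**Figure D5:**
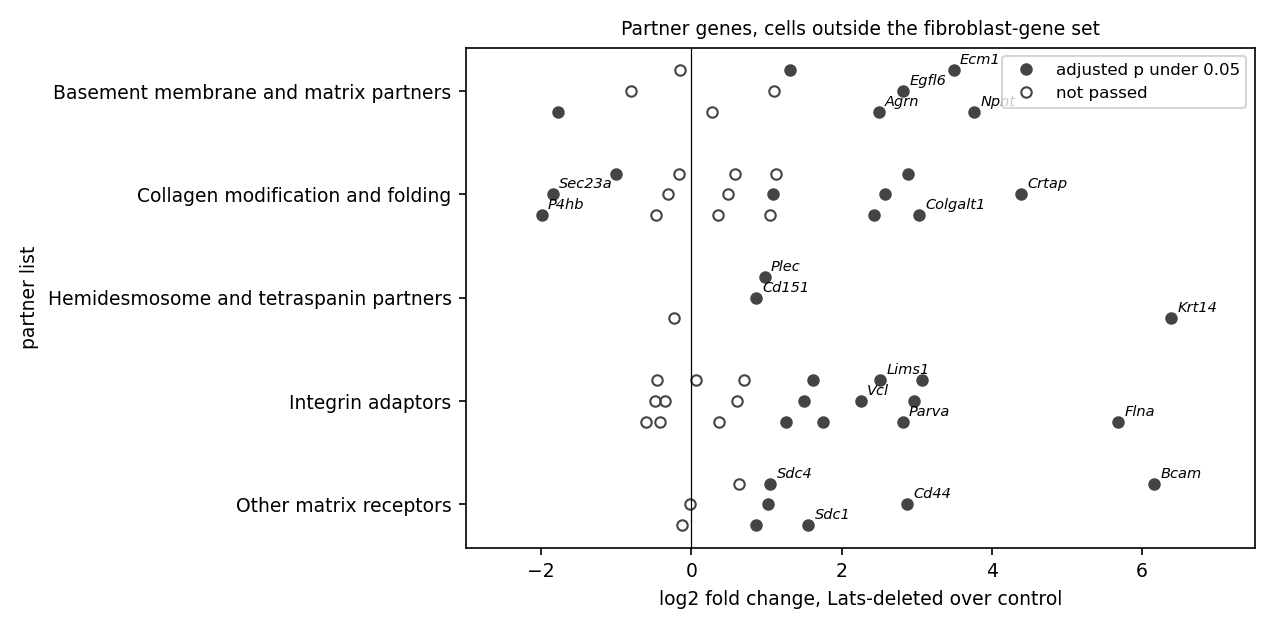
Log2 fold change, Lats-deleted over control, of the 59 tested partner genes outside the fibroblast-gene set, by list; filled points have an adjusted p under 0.05, and up to 4 called genes per list with the smallest p are named. Called integrin adaptors and matrix receptors all lie right of 0, and the collagen modification list has called genes on both sides.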

How the data were processed

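Polyadenylated RNA was counted in single cells of 4 libraries. The deposited values are counts, per cell barcode (rows) and gene symbol (columns), per the file headers. They are whole numbers. Whether they count molecular identifiers is not given in the sources used here. RSEM 1.3.0, Bowtie 1.1.1.1, the build mm10 and SAMtools 1.3.1 are named without a role, per the submitters' processing notes. Counts of kept cells were summed per library and tested with edgeR 4.0.16 (R 4.3.3: filterByExpr, TMM, glmQLFit and glmQLFTest, group as the only term), with p-values adjusted by Benjamini-Hochberg over all genes tested. SE is the log2 fold change over the square root of the test statistic. The procedure was tested on simulated data. CPM of tested sums use the TMM-scaled library size, and those of markers and smaller cell sets the plain total. Where a group held 1 to 3 counts, the ratio of summed counts has an exact 95% interval. Thinning used 1 seeded draw to 1000 counts per cell. No doublet caller was run. Gene positions are from GENCODE M21 on GRCm38, in which all 83 members were found. Results of 1 further gene of the rule are not reported here, and it is in none of the member counts.

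Depth was 2247269 to 9191916 counts per file, and shares have exact (Clopper-Pearson) 95% intervals, while a share of 0 allows 3 counts over the number of cells. The genes given in full were a list of laminin, integrin and collagen genes, the called members of 20 CPM or more in the higher group, and the 4 partner genes per list with the smallest p. Members, lists and tests were chosen with earlier results of these data known. Alternatives were DESeq2 1.42.0, RLE and upper-quartile scaling, no count filter, stricter cell filters, thinned cells, a replicate block, other sets of cells left out and each library left out in turn. Epcam has no column under that symbol and was not used here.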

Additional observations from a re-analysis of the deposited data

Results flagged for a closer look

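The log2 fold change of Itga3, Lats-deleted over control, differed by 2.60 between dividing and enterocyte-gene cells, as given above. The class by genotype term in edgeR gave an adjusted p = 0.0327. This is a test of the difference itself, and the enterocyte-gene cells numbered 32 and 23 in the Lats-deleted libraries.

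A signal of the members also lay in barcodes that were not kept as cells. In barcodes with under 300 counts, which numbered 3269 and 13400 in the Lats-deleted libraries and 2001 and 2299 in the control libraries, Lama3 and Lamb3 together made up 322 and 294.6 CPM in the Lats-deleted libraries, against 44.1 and 58.8 CPM in the control libraries. In kept cells outside the fibroblast-gene set the same sum was 434 and 393 CPM in the Lats-deleted libraries, against 46.1 and 25.2 CPM in the control libraries. The part of this RNA in the levels of kept cells was not tested.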

How the results depend on the processing

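Over the alternatives for single genes outside the fibroblast-gene set, 264 of 292 values kept their direction and their side of the threshold, 16 kept the direction and lost the call, 9 gained a call and 3 changed sign. In dividing cells 145 of 149 kept both and 4 lost the call. The 3 that changed sign are of Itgb5, which was never called, at 0.13 with no count filter, 0.11 without Lats-deleted library 1 and 0.53 without control library 1, in a range of -0.45 to 0.53 with 1 library left out; the cause was not tested. Outside the fibroblast-gene set the number of higher members was 6 to 16 when 1 library was left out, and of lower members 0 to 1; 2 were lower with at most 15% mitochondrially encoded counts and 2 without stomach-, leukocyte- and fibroblast-list cells. A lone library of a group is then assumed to vary like the others. In all kept cells the left-out library gave 5 to 24 higher and 0 to 1 lower, and 1 was lower with at least 2000 counts per cell, with at most 15% mitochondrially encoded counts and without fibroblast-list cells, and 2 without all 3 kinds of cells. Partner genes numbered 12 to 33 higher and 1 to 4 lower with a library left out. In dividing cells 5 members were higher with thinned cells, and 6 to 9 under the other alternatives, with 6 to 8 when 1 library was left out. The replicate numbers are not said to pair the libraries; with a replicate block, 14 members were higher and 1 lower outside the set, 21 and 0 in all kept cells, 8 and 0 in dividing cells, and 30 and 4 partners. The share of all genes called is not given for the alternatives, so their counts describe how the calls moved and show nothing particular to the members or partners. The low counts of Itgb4, Col17a1 and most collagens limit what can be compared.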
